A study of Mus musculus with 6 samples.

Results

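The simple epithelium keratins Krt7, Krt8, Krt18, Krt19, Krt20, Krt23 and Krt80 were compared between penile tumors of SA mice and normal penile epithelium. The 7 genes were taken by symbol from the 52 keratin genes and the 24063 gene symbols of the deposited tables. The transcript row of each symbol was chosen by its mean count over the samples. Each of the 7 genes had 1 row, so that this measured value decided nothing among them. All 7 genes passed the filter on low counts.

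RNA was sequenced from 3 tumors of SA mice and from 3 samples of penile epithelium of wild type (WT) mice. SA mice carried PB-Cre together with floxed alleles of both tumor suppressor genes (PB-Cre+ Smad4L/L ApcL/L), and the age was 5 months in both groups. The WT mice were C57BL/6, labelled wild type. PB-Cre, the PB-Cre4 line in the study's methods, is driven by an androgen-responsive promoter that is active in epithelium, the tumors formed without a carcinogen, and the effects of the deletions, the Cre transgene and the strain background cannot be told apart in this design. The RNA was that of whole fresh tissue, in which fewer cells of a type and less RNA per cell cannot be told apart either.

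Keratins are the intermediate filament proteins of epithelial cells. A filament is built from obligate pairs of an acidic type I and a basic type II chain, so that a type I gene is useful to a cell only beside a type II partner. Simple epithelia, such as those of glands, gut, urothelium and ducts, rely on K8 with K18, often joined by K7, K19 or K20. Squamous epithelia such as skin and the surface of the penis rely on K5 with K14 in their basal layer and on K1 with K10 above it, and Merkel cells, the touch receptor cells of skin, are an exception within skin that contain K8, K18 and K20.

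The depth of a sample, as the sum over gene rows, was between 23828283 and 110509147 counts, and SA tumor 3 had 4.42 times the median depth of the remaining samples. Levels are given as CPM, counts scaled to a library of 1000000 after TMM normalization. A gene was called changed when its adjusted p-value was under 0.01 and its mean differed at least 4-fold, a log2 value of 2, in edgeR's quasi-likelihood test over 16336 genes. At these thresholds 9.41% of the genes tested were called higher and 3.59% lower in SA tumors. Transcripts of Smad4 were lower in SA tumors by a log2 fold change of -0.77 and those of Apc were higher by 1.43, with adjusted p-values of 0.00114 and 0.000185. These counts cover whole transcripts, and the floxed exons are not counted separately in them. Krt14 is the type I keratin of basal squamous cells. It was at 6532 to 9692 CPM in WT penises and at 5072 to 6656 CPM in SA tumors. Both tissues thus contained transcripts of this basal keratin.

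Of the 7 keratins, 5 rose past both thresholds in SA tumors, namely Krt18, Krt8, Krt7, Krt19 and Krt23, and 0 were called lower, where 9.41% and 3.59% of all genes were. Krt18 and Krt8 were at 0.775 to 1.59 CPM in WT penises and at 134 to 302 CPM in SA tumors. Krt20 remained rare in both tissues and Krt80 was lower in SA tumors, and neither of these passed both thresholds. Over the 7 genes the median log2 fold change was 4.17, against 0.03 over all genes tested. The 7 genes were chosen with earlier results of these data known, so that these comparisons with all genes only describe the list.

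**Figure D1:**
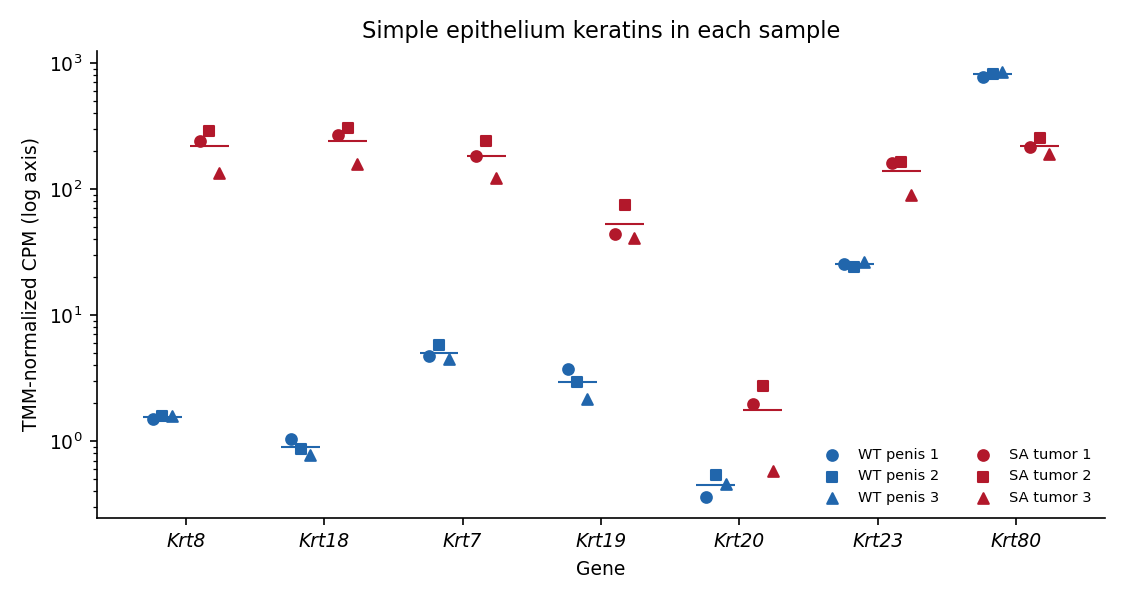
TMM-normalized CPM (log axis) of the 7 keratins in each WT penis (blue) and each SA tumor (red). Marker shapes give the replicate and horizontal lines the group mean. Krt8 and Krt18 show the widest gap between the groups, SA tumor 3 falls close to the WT penises for Krt20, and Krt80 is the gene in which the WT penises lie above the SA tumors.

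Krt8 and Krt18 form the first keratin filaments of the embryo and the basic pair of adult simple epithelia. Krt8 (NM_031170, chromosome 15, 101996711 to 102004342, minus strand) was at 1.49, 1.57 and 1.59 CPM in the 3 WT penises and at 238, 287 and 134 CPM in the 3 SA tumors. The groups did not overlap, and even the lowest SA tumor was 84.1 times the highest WT penis. The mean was 142-fold higher in SA tumors, with a log2 fold change of 7.14 (standard error 0.342, 95% interval 6.34 to 7.94, adjusted p = 4.26e-06). Genes on the opposite strand overlap Krt7, Krt8 and Krt80, and reads of such a gene could not be told apart from theirs if counting ignored strand.

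Krt18 (NM_010664, chromosome 15, 102028216 to 102032026, plus strand), the type I partner of Krt8, was at 1.04, 0.868 and 0.775 CPM in WT penises and at 267, 302 and 157 CPM in SA tumors. This was the largest change among the 7 genes and the 116th largest increase of all 16336 genes tested. Its mean was 271-fold higher in SA tumors, with a log2 fold change of 8.08 (standard error 0.328, 95% interval 7.32 to 8.84, adjusted p = 2.11e-06). In WT penises it rested on 23, 26 and 17 counts, against 7198, 9130 and 19311 counts in SA tumors. SA tumor 3 was the lowest tumor for both genes, and the tumors differed among themselves by up to 2.14-fold for Krt8 and 1.93-fold for Krt18.

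Krt18 is the type I keratin gene that lies outside the type I cluster, next to Krt8 at the end of the type II cluster. The start sites of both genes are 23874 bases apart, and both genes are transcribed away from each other, in the RefSeq annotation of GRCm38.p6. Of the 7 genes, 5 had a promoter window in the RefSeq table used. The 250 bases before the start site are printed 5′ to 3′ on the strand of the gene for this divergent pair and for Krt7, the other type II gene that rose. They lie at chr15:102004343-102004592 for Krt8, chr15:102027966-102028215 for Krt18 and chr15:101412153-101412402 for Krt7, and capitals mark the motif matches described after them.
Krt8: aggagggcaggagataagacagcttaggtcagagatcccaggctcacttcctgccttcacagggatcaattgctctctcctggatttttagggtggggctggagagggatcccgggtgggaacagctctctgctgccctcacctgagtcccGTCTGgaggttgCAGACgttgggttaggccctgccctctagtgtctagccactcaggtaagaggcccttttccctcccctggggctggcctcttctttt
Krt18: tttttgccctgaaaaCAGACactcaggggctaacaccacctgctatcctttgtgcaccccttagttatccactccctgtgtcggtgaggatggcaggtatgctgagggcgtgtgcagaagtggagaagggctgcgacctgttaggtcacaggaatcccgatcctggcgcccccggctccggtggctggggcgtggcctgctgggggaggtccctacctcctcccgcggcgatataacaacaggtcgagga
Krt7: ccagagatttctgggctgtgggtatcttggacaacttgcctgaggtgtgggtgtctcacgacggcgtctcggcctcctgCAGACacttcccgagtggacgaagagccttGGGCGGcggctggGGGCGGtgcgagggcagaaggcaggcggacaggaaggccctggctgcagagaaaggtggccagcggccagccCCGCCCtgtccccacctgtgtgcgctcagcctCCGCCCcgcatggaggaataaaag

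These windows were searched on both strands for TATAAA, for the AP-1 motif TGANTCA, for the TCF/LEF motifs CTTTGAT and CTTTGTT, for the Sp1 and KLF motif GGGCGG, for the Ets motif CCGGAAG and for the short Smad core GTCTG. Krt7 held 4 matches to GGGCGG, at 141, 128, 56 and 24 bases before its start, and 32.7% of all 32851 promoter windows held at least 1. GTCTG was present 2 times in Krt8 and 1 time each in Krt18 and Krt7, and 42.2% of all windows held it. Neither TATAAA, present in 12.4% of all windows, nor either TCF/LEF motif, present in 8.06%, was found in these 3 windows. TGANTCA and CCGGAAG, present in 6.75% and 6.91% of all windows, were not found in them either. Sequence outside the windows, introns included, was not searched. In Krt20, a TATAAA lay 29 bases before the start site. A match is a string of letters and was not tested as a binding site. GC content was 58%, 60.4% and 66% in the windows of Krt8, Krt18 and Krt7, against a median of 52.4% over all windows.

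Krt7 and Krt19 are the keratins that ducts and other simple epithelia add to the Krt8 and Krt18 pair. Krt7 (NM_033073, chromosome 15, 101412403 to 101427806, plus strand) was at 4.75, 5.78 and 4.51 CPM in WT penises and at 183, 239 and 121 CPM in SA tumors. It was 36.1-fold higher in SA tumors, or 5.17 on the log2 scale (standard error 0.279, 95% interval 4.52 to 5.81, adjusted p = 5.69e-06). The lowest SA tumor was 21 times the highest WT penis.

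Krt19, the smallest type I keratin and one without a tail domain, is also found in hair follicle stem cells. Krt19 (NM_008471, chromosome 11, 100140810 to 100145926, minus strand) was at 3.75, 2.94 and 2.14 CPM in WT penises and at 43.7, 75.0 and 40.7 CPM in SA tumors. SA tumor 2 stood above the others, and the groups were separated by at least 10.9-fold. The mean rose 18-fold, or by 4.17 on the log2 scale (standard error 0.311, 95% interval 3.45 to 4.89, adjusted p = 2.48e-05).

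Krt23, a type I keratin, was already present in WT penises. Krt23 (NM_033373, chromosome 11, 99477973 to 99493120, minus strand) was at 25.6, 23.8 and 26.1 CPM in WT penises and at 160.2, 164 and 89.5 CPM in SA tumors. The mean rose 5.49-fold, or by 2.45 on the log2 scale (standard error 0.227, adjusted p = 6.5e-05). Its 95% interval, 1.93 to 2.98, included the threshold of 2, and in a test against that threshold itself (edgeR's glmTreat) the adjusted p was 0.103.

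Krt20, the keratin of gut epithelium, urothelial surface cells and Merkel cells, was the rarest of the 7. Krt20 (NM_023256, chromosome 11, 99428385 to 99438153, minus strand) was at 0.362, 0.534 and 0.456 CPM in WT penises and at 1.97, 2.75 and 0.577 CPM in SA tumors. SA tumors 1 and 2 were above every WT penis, while SA tumor 3 was 1.08 times the highest of them. The log2 fold change of 1.90 (standard error 0.601, 95% interval 0.52 to 3.28, adjusted p = 0.0275) did not pass the thresholds. Without SA tumor 3 it was 2.36 with an adjusted p of 0.000654, which passed both.

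Krt80 is a type II keratin that, unlike the other 6 genes, is best known from the differentiating layers of many epithelia, squamous ones included, and its high level in normal squamous tissue goes against the simple epithelium label. Krt80 (NM_028770, chromosome 15, 101348315 to 101370162, minus strand) was at 771, 822 and 847 CPM in WT penises and at 217, 254 and 188 CPM in SA tumors. Each SA tumor was below each WT penis, and the mean was 3.7-fold lower. The log2 fold change of -1.89 (standard error 0.132, 95% interval -2.19 to -1.59, adjusted p = 1.26e-05) passed the threshold on the adjusted p-value, as did 17.5% of all genes tested in that direction and 37.6% in either, but not the threshold on size. Without SA tumor 2 it was -2.01 and passed both.

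The groups did not overlap for any of the 7 genes, with 6 higher and 1 lower in SA tumors. Groups without overlap are common in these data, at 32.7% of all genes tested in the higher direction and 30.7% in the lower, or 63.4% in either. Within the tumors all 7 genes shared an order, with the highest level in SA tumor 2, then SA tumor 1, then SA tumor 3, an order found in 20.1% of all genes tested. SA tumor 2 was the highest of the 3 tumors for 32% and SA tumor 3 the lowest for 36.1% of all genes tested. Krt80 shared this order with the genes that rose. In WT penises the spread was small, from 1.07-fold between the highest and lowest sample for Krt8 to 1.75-fold for Krt19.

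Levels of different genes were compared per transcript length, as TPM, which sums to 1000000 in each sample. In SA tumors Krt18 was the highest of the 7, at 305 ± 88.4 TPM (SD, n = 3). Krt80, Krt8 and Krt7 followed at 219 ± 26.2, 215 ± 70.9 and 201 ± 59.2 TPM (SD, n = 3 each). Their ranges overlapped between neighbours in this order, and Krt80 exceeded Krt8 in 1 of 3 tumors and Krt8 exceeded Krt7 in 2 of 3. Krt23 at 158 ± 45.3 TPM, Krt19 at 68.1 ± 21.9 TPM and Krt20 at 1.6 ± 0.965 TPM completed the order (SD, n = 3 each). Krt7 and Krt23 also overlapped, while Krt23, Krt19 and Krt20 did not.

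In WT penises the order was different, and no neighbours in it overlapped. Krt80 led at 631 ± 68.0 TPM, and Krt23 came next at 22.4 ± 1.76 TPM (SD, n = 3 each). Krt7 was at 4.34 ± 0.658, Krt19 at 2.91 ± 0.627, Krt8 at 1.18 ± 0.112, Krt18 at 0.871 ± 0.0763 and Krt20 at 0.322 ± 0.0749 TPM (SD, n = 3 each). By these means Krt18 was in the sixth place among the 7 genes in WT penises and in the first in SA tumors. Its place below Krt8 in WT penises rested on 17 to 26 counts of Krt18 and 33 to 47 of Krt8. In SA tumors it exceeded Krt80 in 3 of 3 tumors, with overlapping ranges.

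**Figure D2:**
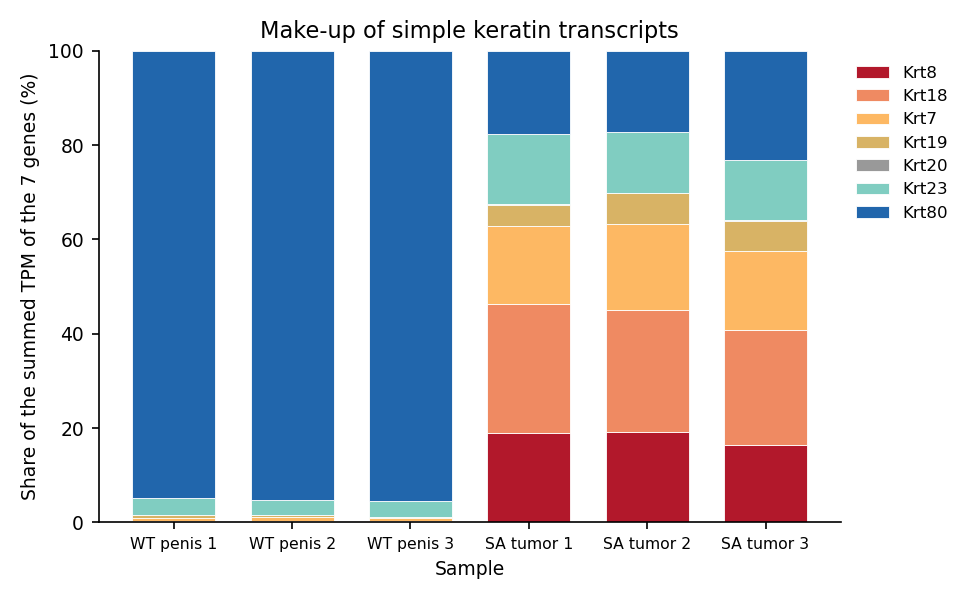
Share of the summed TPM of the 7 keratins (percent) held by each gene, stacked for each WT penis and each SA tumor. Krt80 holds 94.7% to 95.4% in WT penises and 17.2% to 23.2% in SA tumors, where Krt8 and Krt18 together hold 40.8% to 46.3%.

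The make-up of the simple keratin transcripts differed between the tissues. Krt80 held 95.1% ± 0.347 of their summed TPM in WT penises and 19.3% ± 3.34 in SA tumors (SD, n = 3 each). Krt8 and Krt18 together held 0.312% ± 0.0281 in WT penises and 44.1% ± 2.89 in SA tumors (SD, n = 3 each). The summed level of all 7 genes was 587, 679 and 722 TPM in WT penises and 1248, 1423 and 833 TPM in SA tumors, a ratio of 1.76 between the means. Without Krt80, an alternative chosen after its direction had been seen, the sums were 30.9 to 33.2 TPM and 640 to 1178 TPM. The exact permutation test over samples (two-sided) gave p = 0.1 for each of these measures, the smallest value that 3 against 3 samples allow.

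Krt8 per Krt18, in TPM, was 1.11, 1.4 and 1.6 in WT penises and 0.691, 0.737 and 0.663 in SA tumors. Krt8 was the more abundant transcript in every WT penis and Krt18 in every SA tumor. The difference of the log2 ratio was -0.961 (two-sided exact permutation p = 0.1, the smallest that 3 against 3 samples allow). The WT ratios rested on 33, 47 and 35 counts of Krt8, and the 95% exact binomial (Clopper-Pearson) intervals of the counts reached from 0.634 to 1.98, from 0.851 to 2.36 and from 0.871 to 3.04. These intervals cover counting error only, each includes 1, and the interval of WT penis 1 spans the values of all 3 SA tumors.

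**Figure D3:**
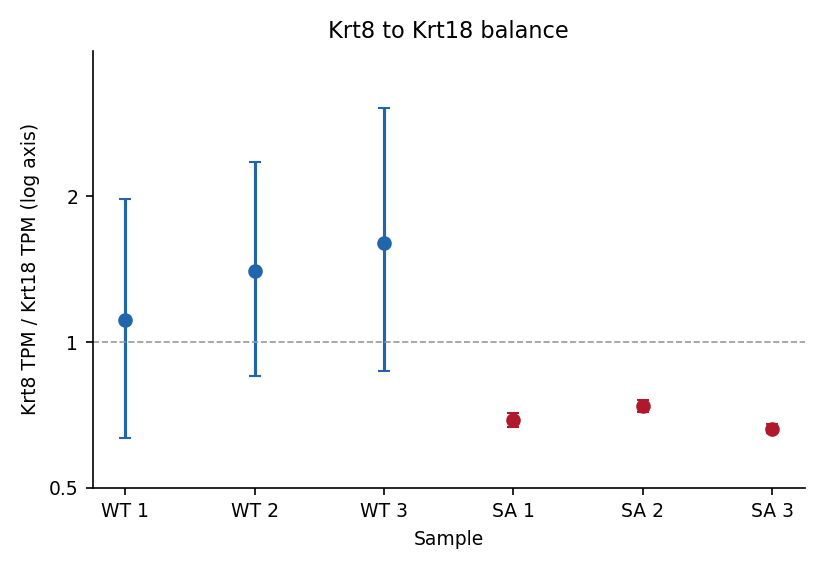
Ratio of Krt8 to Krt18 in TPM (log axis) in each WT penis (blue) and each SA tumor (red), with 95% Clopper-Pearson intervals of the counts. The dashed line marks equal levels. The SA tumors lie between 0.663 and 0.737, and the intervals of the WT penises all include 1.

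Summed over the 7 genes in TPM, type II transcripts outnumbered type I transcripts 23.9 ± 2.03 times in WT penises and 1.20 ± 0.0774 times in SA tumors (SD, n = 3 each). Krt80 carried that excess. Without it, the ratio was 0.208 ± 0.0308 in WT penises, where the type I gene Krt23 outweighed the rest, and 0.775 ± 0.0369 in SA tumors (SD, n = 3 each). Partners for the chains that these transcripts encode also come from the squamous keratins, whose transcripts were far more abundant in both tissues.

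All keratins together made up 7.43% ± 0.0871 of the TPM of WT penises and 5.08% ± 0.203 of that of SA tumors (SD, n = 3 each). The 7 simple keratins held 1.06%, 1.26% and 1.33% of keratin TPM in WT penises and 3.42%, 3.76% and 2.40% in SA tumors. Without Krt80 the share was 0.0588% ± 0.00275 in WT penises and 2.59% ± 0.662 in SA tumors (SD, n = 3 each). The simple keratins thus remained a minor part of the keratin transcripts, and the 21 squamous (stratified) keratins held 93.0% ± 2.16 of the total in SA tumors (SD, n = 3).

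**Figure D4:**
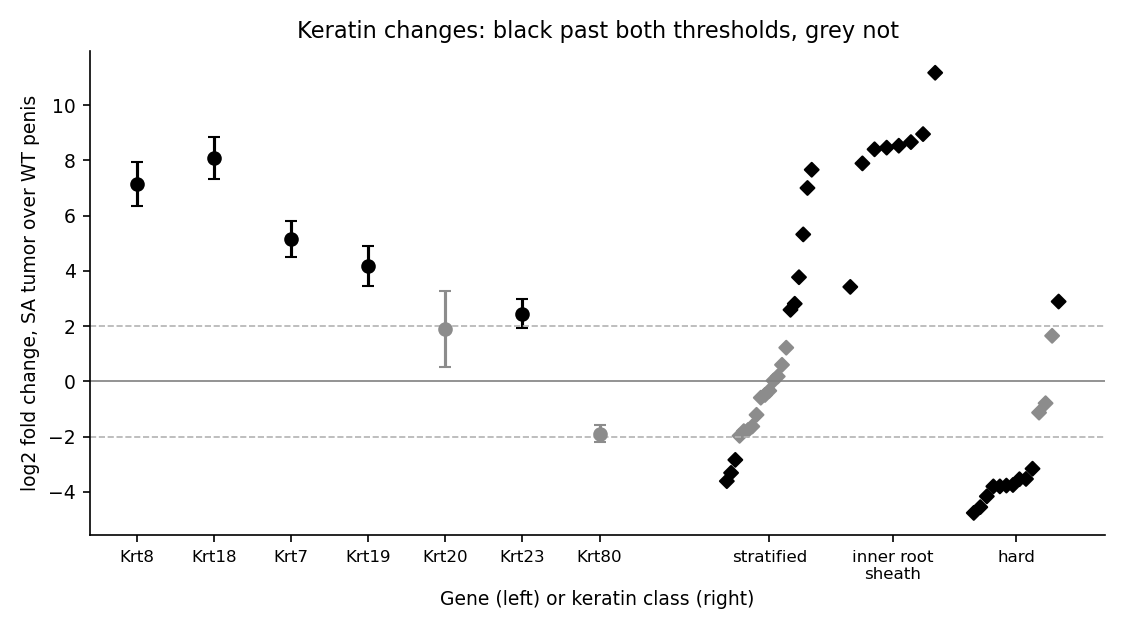
Log2 fold change of SA tumors over WT penises for the 7 simple keratins (circles, with 95% intervals) and for the genes of the other keratin classes (diamonds). Black symbols passed both thresholds, grey ones did not, and dashed lines mark a log2 fold change of 2 in either direction. All 8 inner root sheath keratins lie above the upper line, and 10 of the 14 hard keratins tested lie below the lower one.

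The other keratin classes moved in different directions. Of the 44 other keratin genes tested, 16 were called higher and 13 lower, with a median log2 fold change of -0.42. Among 21 stratified keratins, 6 rose, such as Krt42 and Krt79 by 7.66 and 7 on the log2 scale, 3 fell and 12 were not called. Krt1 and Krt10, the pair of the upper squamous layers, had log2 fold changes of -1.63 and -1.97, below the threshold on size, with adjusted p-values of 0.000225 and 9.55e-05. All 8 keratins of the hair inner root sheath rose, and of 14 hard keratins, the keratins of hair and nail, 10 fell and Krt32 rose, though 0 rose without WT penis 1 or WT penis 3. Krt73, the most abundant inner root sheath keratin, was at 0.957 to 1.9 CPM in WT penises and at 244 to 665 CPM in SA tumors. Krt26 had 0 counts in all WT penises and was at 2.63 to 10.3 CPM in SA tumors. Krt86, the hard keratin with the largest change, was at 379 to 540.1 CPM in WT penises and at 6.35 to 27 CPM in SA tumors.

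The simple keratins lie among these classes in the 2 keratin clusters of the mouse genome, and several neighbouring genes moved in opposite directions. On chromosome 11, Krt19 lies 4861 bases from Krt15, a keratin of basal and hair follicle stem cells, which fell by 3.61 on the log2 scale (adjusted p = 2.11e-06) where Krt19 rose by 4.17. Krt9, the next gene on the other side of Krt19, rose by 5.32. On chromosome 15, Krt7 lies 42241 bases from Krt80 and 31255 bases from the hard keratin Krt81, which fell by 3.53. Krt78, a keratin of squamous differentiation that neighbours Krt8, fell by 2.84. Beyond Krt18, at the edge of the cluster, the translation factor gene Eif4b had a log2 fold change of -0.45. These neighbours were named for their position, after the counts had been seen.

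Genes that hold keratin filaments to junctions and other structures did not follow the simple keratins. Of 12 linker genes tested, none rose, 1 fell past both thresholds and 7 more were lower at the adjusted p-value alone, with a median log2 fold change of -1.11. The gene called lower was Dst, which links filaments to hemidesmosomes, at a log2 fold change of -2.34. Dsp, the desmosomal linker desmoplakin, had the highest level of the list, with 7905 to 9090.3 CPM in WT penises and 3543 to 3907 CPM in SA tumors. Among other intermediate filament genes, Prph, which encodes the neuronal filament protein peripherin, rose by 3.89, and Des and Synm, the muscle filament genes desmin and synemin, fell by 4.82 and 2.41.

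Epithelial genes outside the keratins were split. Of 13 genes found in most epithelia, Epcam and Cldn7 were called higher and none lower, and the median log2 fold change was -0.28. Epcam, an adhesion protein gene typical of simple epithelia, was at 32.8 to 36.2 CPM in WT penises and at 126 to 206 CPM in SA tumors, a log2 fold change of 2.35 (adjusted p = 2.41e-05). Cdh1, which encodes E-cadherin, was at 406 to 437 CPM and at 389 to 474 CPM, with overlapping groups and a log2 fold change of 0.04. Set against Cdh1 in the same sample, Krt8 was at 0.37 ± 0.012 CPM for each 100 CPM of Cdh1 in WT penises and at 50.2 ± 15.7 in SA tumors (SD, n = 3 each). The means differed by 7.08 on the log2 scale.

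The outcome for Krt23 and Krt20 depended on the epithelial gene they were set against. For each 100 CPM of Cdh1, Krt23 was at 6 ± 0.485 CPM in WT penises and 31.5 ± 7.6 in SA tumors, and Krt20 was at 0.107 ± 0.0167 and 0.398 ± 0.241 (SD, n = 3 each, two-sided exact permutation p = 0.1 for both). Against the sum of the 13 genes the log2 ratios of the means were 2.91 and 2.39 for Krt23 and Krt20. That sum was itself lower in SA tumors, at 2245 to 2639 CPM against 3419 to 3548 CPM in WT penises, which enlarges these ratios. Against Epcam, which itself rose by 2.35, the groups were closer. Krt23 was at 72.6 ± 1.93 CPM for each 100 CPM of Epcam in WT penises and at 77.0 ± 5.71 in SA tumors (SD, n = 3 each, two-sided exact permutation p = 0.3). Krt20 was at 1.31 ± 0.313 and 0.929 ± 0.46 (SD, n = 3 each, two-sided exact permutation p = 0.4). Krt18 was higher in every SA tumor on this scale, at 135 ± 14.2 against 2.58 ± 0.336 in WT penises (SD, n = 3 each), as was Krt8 at 122 ± 19.5 against 4.49 ± 0.331.

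Likeness of pattern was measured as the root mean square difference between log2 CPM profiles over the 6 samples, each centred on its mean. The genes nearest to Krt23 were Pcgf1, a Polycomb group gene, at 0.0520, and Epcam at 0.0778. Cldn7, a claudin of simple epithelia, was nearest to Krt19, at 0.0937 and followed by Glrp1 at 0.17. Cldn7 was at 1.08, 0.768 and 0.547 CPM in WT penises and at 12.8, 19.7 and 9.99 CPM in SA tumors. Rdh9 and Ang2 were nearest to Krt7, at 0.134 and 0.149, Siglec15 and Myh7b to Krt8, at 0.219 and 0.222, and Otop1 and Tlx2 to Krt18, at 0.214 and 0.255. Ang2 and Siglec15 had 0 counts in all 3 WT penises, so that their distance depends on the prior count of 2 used for log2 CPM. Lypd5 and Plet1 were nearest to Krt80, at 0.0644 and 0.0770, and Bglap3 and 2310034O05Rik to Krt20, at 0.26 and 0.365. Among the 7 genes themselves, Krt8 and Krt18 were the closest pair, at 0.489, and Krt18 and Krt80 were the farthest apart, at 4.94.

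Genes of glandular epithelium moved in both directions. Of 12 tested, 4 were called higher, 1 lower and 7 not, with a median log2 fold change of 1.04. At the adjusted p-value alone, 2 more were higher and 3 more were lower. The summed level of the list was 617 to 641 CPM in SA tumors and 1422 to 1697 CPM in WT penises. Elf3, an epithelial Ets factor, rose by 3.65, the mucin gene Muc1 by 2.93, the chloride channel gene Cftr by 5.18 and Prom1 by 2.01, whereas Aqp5, a water channel of glands, fell by 4.73. Krt18 is known to be activated through AP-1 and Ets factors. Of 12 AP-1 and Ets genes tested, Etv4 and Etv5 rose, by 2.58 and 2.53, and none of the others was called. Among those others, 2 were higher and 2 lower at the adjusted p-value alone. The part of AP-1 and Ets factors in the change of Krt18 was not tested. Fos was at 3.71, 519 and 35.5 CPM in the WT penises, a 140.1-fold spread within that group.

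**Figure D5:**
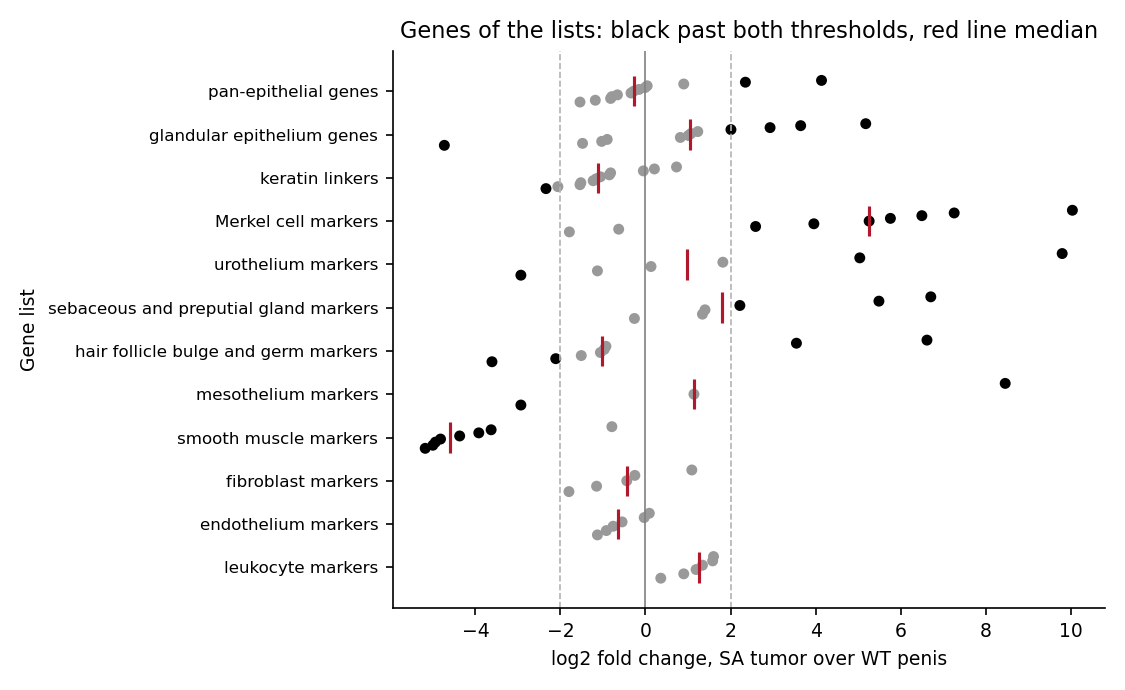
Log2 fold change of SA tumors over WT penises for the genes of each list, with black points for genes past both thresholds, grey points for the others and a red line at the median. Dashed lines mark a log2 fold change of 2 in either direction. The median is 5.26 for Merkel cell markers and -4.6 for smooth muscle markers.

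Markers of other cells that contain these keratins were measured beside them. Of 11 Merkel cell markers, 9 were tested, 7 were called higher and none lower, with a median log2 fold change of 5.26. Sox2 was at 53.6 to 109.8 CPM in SA tumors and rose by 7.26 on the log2 scale, Snap25 by 6.5 and Gfi1 by 5.76. The study describes Sox2 as a transcriptional target of β-catenin and found its protein raised in SA tumors. In the study, knockdown of Sox2 in a cell line from an SA tumor slowed the growth of grafted tumors. Rab3c, a vesicle gene, was at 36.7 to 57.8 CPM in SA tumors and at 0 to 0.0904 CPM in WT penises, and Insm1 was at 1.19 to 2.32 CPM and at 0 to 0.0911 CPM. Atoh1, the factor that defines Merkel cells, was at 0.111, 0.0993 and 0.0487 CPM in SA tumors and at 0 to 0.0452 CPM in WT penises, at or near the level of 3 counts and too low to be tested. Isl1 was at 29.4 to 61.7 CPM in SA tumors, below its 156 to 165 CPM in WT penises. The summed level of the list was 266 to 285 CPM in SA tumors and 168 to 179.6 CPM in WT penises, and its part in the change of Krt8, Krt18 and Krt20 was not tested.

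Of 7 urothelium markers, 6 were tested, 2 rose and Upk3b fell. Upk2 and Upk3a, genes of the urothelial surface plaques, rose, to 0.983 to 2.86 CPM and 2.31 to 2.98 CPM in SA tumors, against 0 to 0.1 CPM and 0 counts in WT penises. Upk1a was at 0.995 to 1.66 CPM over both tissues. The sum of the list was 81.2 to 146 CPM in SA tumors and 118 to 209.8 CPM in WT penises, and the groups overlapped. Of 8 sebaceous and preputial gland markers, 6 were tested and 3 rose, with a sum of 15.1 to 30.5 CPM in SA tumors and 11.3 to 11.8 CPM in WT penises. Of 8 prostate and seminal vesicle markers in the files, only Tgm4 was tested, with a log2 fold change of 0.11, and the prostate marker Pbsn was at 0 in all 6 samples. Of 5 mesothelium markers, 3 were tested, Calb2 rose and Upk3b fell, and the defining markers Wt1 and Lrrn4 were at 0 to 0.111 CPM.

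Markers of muscle, fibroblasts, endothelium, leukocytes and hair follicle cells were measured as well. Of 8 smooth muscle markers, 7 fell, such as the contractile genes Cnn1 and Myh11 by 5.18 and 5 on the log2 scale, and their summed level was 89.8 to 200.3 CPM in SA tumors against 1684 to 2222 CPM in WT penises. The sums of fibroblast markers, 1024 to 3804 CPM in SA tumors against 5008 to 5270.2 CPM in WT penises, and of endothelium markers, 149.8 to 255 CPM against 266 to 293 CPM, were lower in every SA tumor, although no gene of either list was called. None of 6 leukocyte markers was called (median 1.26 on the log2 scale), and their sum was 72.2, 145 and 226 CPM in SA tumors 1, 2 and 3 and 73.3 to 98.1 CPM in WT penises. SA tumor 3, the tumor with the lowest level of each simple keratin, thus had the highest sums of leukocyte, fibroblast and smooth muscle markers of the 3 tumors. SA tumor 1, with the lowest such sums, was not the tumor with the highest keratin levels, and the part of these cells in the differences between tumors was not tested. Of the hair follicle bulge and germ markers, 2 rose and 2 fell among 8, with Lhx2 and Lgr6 at 6.62 and 3.55 and Krt15 and Cd34 at -3.61 and -2.11. The 4 that were not called were all lower at the adjusted p-value alone. The summed level of this list was 367 to 391 CPM in SA tumors against 1881 to 2306 CPM in WT penises. Of 4 skeletal muscle markers tested, Ckm fell by 3.71 and none rose.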

How the data were processed

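Tumors (3 SA mice) and normal epithelium (3 WT mice) of the penis were measured by stranded paired-end RNA sequencing. TopHat alignments to mm10 were counted with HTSeq by the authors, and tool versions and the strand setting are not given in the sources used here. The deposited files hold raw counts for 33068 RefSeq transcripts, with FPKM and TPM values that the authors derived from them. FPKM served only to recover transcript length. TPM was used for levels between genes and sums to 1000000 in each sample over all transcript rows.

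The transcript row with the highest mean count represented each gene. Counts were filtered with edgeR's filterByExpr (minimum count 10, minimum total 15), normalized by TMM and tested by edgeR 4.0.16 (robust quasi-likelihood F-test, R 4.3.3, Benjamini-Hochberg adjustment over 16336 genes). Calls needed an adjusted p under 0.01 and a 4-fold difference. The standard error was the log2 fold change divided by the root of F. A floor of 3 counts equals 0.0244 to 0.137 CPM. DESeq2 1.42.0, limma-voom (limma 3.58.1), other scalings, filters and transcript rows, glmTreat, a replicate block and each sample left out were alternatives. The fit was tested on simulated data with 200 changed genes.

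The 7 genes, the other lists and the thresholds were chosen with earlier results of these data known. Genes eligible to be named were the 7 keratins, the first 3, the 3 most abundant and the 4 most changed called genes of each list, the 2 nearest patterns of each keratin, and Smad4 and Apc. Not every eligible list gene is named, and the others enter as counts. Neighbouring genes, Krt81, Krt78 and Eif4b among them, Prom1 and the keratin sums without Krt80 were chosen after values had been seen. Krt7, Krt8 and Krt80 overlap genes on the other strand, and 1 pseudogene named for Krt8 is annotated, so that their counts are less certain. Promoters of Krt19 and Krt80 were not analysed here. The labels give no litters or batches, and p-values measure only the spread between these samples.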

Additional observations from a re-analysis of the deposited data

How the results depend on the processing

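Krt18, Krt8, Krt7 and Krt19 were called higher under all 18 alternatives tried, with log2 fold changes of 7.89 to 8.36, 6.90 to 7.42, 4.91 to 5.45 and 3.84 to 4.46. Krt23 was called under 17 of 18, with values of 2.31 to 2.74, and not by the test against the fold-change threshold (2.45, adjusted p = 0.103). With single samples left out, Krt20 ranged from 1.39 to 2.36 and was called without SA tumor 3, and Krt80 ranged from -2.01 to -1.79 and was called without SA tumor 2. The number of the 7 genes called higher was then 5 to 6 and the number called lower 0 to 1. With limma-voom the log2 fold change of Krt20 was 1.18 (adjusted p = 0.243), and with DESeq2 it was 1.94 (adjusted p = 0.00461). Krt20 gave no value with a filter at a mean of 50 counts. Krt32, the hard keratin called higher, was lost without WT penis 1 or WT penis 3, so that the count ranged from 0 to 1. The test against the fold-change threshold left 749 genes higher and 180 lower of all genes, against 1537 and 587. Library totals only, without TMM, moved the median of all genes from 0.03 to 0.31 and the 7 genes by a similar amount, and no direction among the 7 changed under any scaling.

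The replicate number does not mark a pair in the labels, and the deviations of same-numbered samples had correlations of -0.13, -0.10 and 0.02. With the replicate number as a block, 5 of the 7 genes were called higher and 0 lower, as without it, and log2 fold changes of Krt18, Krt20 and Krt80 were 8.07, 1.76 and -1.90.

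Depth limits Krt20, Krt8 and Krt18 in WT penises, where 8 to 47 counts support a value, and Krt20 in SA tumors, with 53 to 83 counts.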
